A study of Mus musculus with 23 samples.

Results

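The 10 genes described here encode transcription factors of the skeletal and mesenchymal programmes, namely Runx1, Runx2, Sox9, Prrx1, Twist1, Twist2, Snai1, Snai2, Zeb1 and Zeb2. They were taken by symbol from the 23284 genes of the expression table, and all 10 were found. Expression was measured by single-cell RNA-seq in 16 mouse bone marrow mesenchymal stem cells (mMSC1 to mMSC16) and in 5 HL-1 cardiomyocytes (HL1cm1 to HL1cm5), with 1 population control of each cell type (mMSC-PC and HL1cm-PC). By the study's methods the mMSCs were a purchased preparation from male donors aged 3 months, and they were at passages 6 to 11. HL1cm, an immortalised line derived from a mouse atrial tumour and used as the negative control, were at passages 70 to 85. The strain label of all 23 libraries was C57BL/6J. Cells of both types were captured on a Fluidigm C1 chip, and the population controls held many cells carried through the same preparation. Nothing in the labels names separate cultures, so each cell type was 1 sample, the cells were not replicates of it, and no test was made between cell types.

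Runx2 is required for bone formation and Sox9 for cartilage formation, while Runx1 is best known from blood development and is also active in skeletal progenitors. Twist1, Twist2 and Prrx1 mark embryonic mesenchyme, where Twist proteins can restrain Runx2 and Prrx1 acts in limb and craniofacial skeleton. Snai1, Snai2, Zeb1 and Zeb2 are zinc finger repressors that bind E-box motifs, silence epithelial genes such as Cdh1 and drive the change from epithelial to mesenchymal state.

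Values were FPKM, a fragment count divided by exon length and by the mapped fragments of the library, so that length-scaled values allow levels of different genes to be set side by side. Between 5178 (mMSC9) and 7241 (mMSC5) genes were at 1 FPKM or more in an mMSC and between 6428 and 7010 in an HL1cm, while the population controls had 9625 (mMSC-PC) and 9881 (HL1cm-PC). The table gives no depth, and the read totals that the study tabulates were not used here. From the commonest ratio between low values, 1 fragment was worth roughly 5.37 times as much in mMSC9 and 3.80 times as much in mMSC15 as in mMSC6, so among the single cells low genes were least precise in these. The same ratio was 4.36 for mMSC-PC and 5.37 for HL1cm-PC. A pool of many cells is unlike 1 cell in its low values, so there the ratio may not give the worth of 1 fragment. In mMSC-PC 10279 genes were above 0 and 9625 at 1 FPKM or more, against 5198 and 5178 in mMSC9. How precise the low values of the pools were is therefore not known. A value of 0 need not be absence, since Canx, a chaperone of the endoplasmic reticulum that cells generally use, had 0 FPKM in mMSC12 but 809 to 1991 FPKM elsewhere among the mMSCs. Zeros are therefore given as listed. In 6 single-cell libraries (mMSC1, mMSC8, mMSC16, HL1cm1, HL1cm3 and HL1cm5) the FPKM values summed to over 1500000, with a microRNA locus entry, Mir3470a, holding 43.1% to 72.3% of the sum. Summed FPKM of 7 mesenchymal stem cell markers was 701 to 4932 in the mMSCs and 4.22 to 100.2 in HL1cm, although Thy1 was listed at 0 in every single cell. Vcam1 went the other way, with a median of 25.8 FPKM in HL1cm (found in 5 of 5) against 6.57 in mMSCs. Of the 7, 5 were at 1 FPKM or more in every mMSC. Summed FPKM of 10 cardiomyocyte markers was 30730 to 57422 in HL1cm and 0 to 65.4 in mMSCs. Of the 7 macrophage markers in the table, Cd14 was at 1 FPKM or more in 15 of 16 mMSCs (median 62.5 FPKM) and Csf1r in 8. The list summed to 3.10 to 369 FPKM in the mMSCs, and Ptprc, Emr1, Lyz2 and C1qa were listed at 0 in all 16.

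Promoter sequences were held for 7 of the 10 genes in the RefSeq table (build GRCm38.p6), with 11 start sites in all, and Sox9, Snai2 and Zeb1 had no entry. Those of Twist1 and Twist2 are shown because these paralogues were detected in different numbers of cells, and that of Snai1 because its product reads E-boxes and its level varied most between cells. Each is the 250 bases before the annotated start, 5′ to 3′ on the gene's strand, at chr12:33957421-33957670 (plus strand), chr1:91801211-91801460 (plus strand) and chr2:167537945-167538194 (plus strand). Capitals mark a TATAAA match in Twist1 and a CANNTG match (E-box) in Snai1.
Twist1: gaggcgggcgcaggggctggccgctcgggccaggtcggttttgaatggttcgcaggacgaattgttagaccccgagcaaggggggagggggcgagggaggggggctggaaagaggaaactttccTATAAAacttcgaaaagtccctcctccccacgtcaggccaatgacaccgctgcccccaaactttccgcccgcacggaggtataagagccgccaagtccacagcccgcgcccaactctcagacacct
Twist2: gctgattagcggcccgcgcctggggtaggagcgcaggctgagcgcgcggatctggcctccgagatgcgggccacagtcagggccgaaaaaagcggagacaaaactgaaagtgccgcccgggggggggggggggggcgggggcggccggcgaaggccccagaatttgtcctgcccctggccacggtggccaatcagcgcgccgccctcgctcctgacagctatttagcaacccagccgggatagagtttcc
Snai1: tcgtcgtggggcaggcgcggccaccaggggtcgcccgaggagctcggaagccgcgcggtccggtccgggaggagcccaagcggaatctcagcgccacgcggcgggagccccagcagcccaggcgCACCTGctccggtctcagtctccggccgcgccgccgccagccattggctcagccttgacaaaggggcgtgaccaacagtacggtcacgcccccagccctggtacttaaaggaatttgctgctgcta
GC made up 62.4% of the Twist1 window, 68.8% of the Twist2 window and 70% of the Snai1 window, with 18, 23 and 27 CpG, against medians of 52.4% and 6 CpG over 32851 promoters of the same length. Motifs were searched on both strands. The general E-box, CANNTG, lay in 66.2% of all promoters and in 3 of the 11 windows of these genes (Runx1, Runx2 and Snai1). Its form bound by Snai and Zeb proteins, CAGGTG, also counted under the first, lay in 17.2% of all promoters and in 2 of the 11 windows (Runx1 and Snai1), and in Snai1 it is read from the other strand. The Runx core, TGTGGT, lay in 14.05% of all promoters and in 1 window (Runx2), where it overlaps the E-box. The TATA motif, TATAAA, lay in 12.4% of all promoters and in 1 window (Twist1). A match in these windows is a description of letters and not of binding.

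Single mMSCs carried most of these factors at once. Of the 10 genes, 6 to 10 were at 1 FPKM or more in a given mMSC, with a median of 8, against 1 to 3 in an HL1cm. Of all 23284 genes, a median of 6870 were at 1 FPKM or more in an mMSC and 6736 in an HL1cm. All 10 were reached in mMSC2, mMSC8 and mMSC10, and the fewest, 6, were found in mMSC11. Runx1, Runx2, Sox9 and Prrx1 were at 1 FPKM or more in 16 of 16 mMSCs (100%, exact Clopper-Pearson 95% interval 79.4% to 100%). Among all 11850 genes that reached 1 FPKM in 2 or more of the 21 single cells, 18.1% were found in every mMSC. Snai2 was found in 15 of 16 mMSCs (93.8%, interval 69.8% to 99.8%), Twist1, Snai1 and Zeb1 in 12 each (75.0%, interval 47.6% to 92.7%), Zeb2 in 10 (62.5%, interval 35.4% to 84.8%) and Twist2 in 7 (43.8%, interval 19.8% to 70.1%). The intervals cover counting error over cells only. At 10 FPKM or more, none of the 10 genes was found in all 16 mMSCs, and the count was 15 for Runx1 and Sox9, 14 for Prrx1, 12 for Snai1, 10 for Twist1 and Snai2, 8 for Runx2, 7 for Twist2, 1 for Zeb1 and 0 for Zeb2.

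By median FPKM over the 16 mMSCs, the order was Sox9 (76.6), Prrx1 (39.6), Snai1 (38.8), Runx1 (31.3), Twist1 (14.2), Snai2 (13.4), Runx2 (12.1), Zeb1 (4.49), Zeb2 (2.10) and Twist2 (0). No pair of neighbours in this order differed beyond its spread, because the SD of the within-cell log2 difference was larger than the mean difference for all 9 pairs. Sox9 was above Prrx1 in 11 of 16 cells and Runx2 above Zeb1 in 12, but Prrx1 and Snai1 were each above the other in 8. Sox9 was the highest of the 10 genes in 8 mMSCs, Prrx1 in 3, Snai1 and Twist1 in 2 each and Runx1 in 1, whereas Prrx1 was the highest in all 5 HL1cm. Summed over the 10 genes, FPKM ran from 129 in mMSC11 to 574 in mMSC9, with a median of 329, and from 4.72 to 29.2 in HL1cm. The sums of the cell types did not overlap. Gapdh, the reference gene of the study, was at 157 to 319 FPKM in the mMSCs and 190 to 395 in HL1cm, which did overlap.

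**Figure D1:**
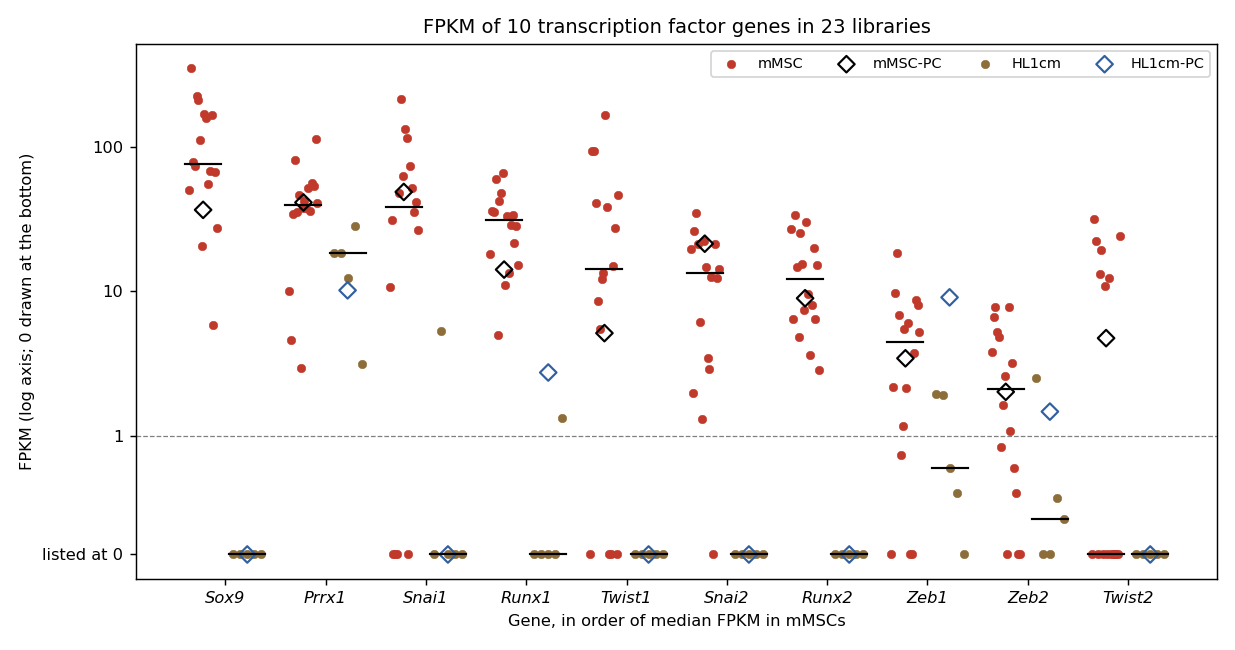
FPKM (log axis, with 0 drawn at the bottom) of the 10 genes in 16 single mMSCs, 5 single HL1cm and both population controls; each point is a library and bars are medians over cells. Runx1, Runx2 and Sox9 lie above every HL1cm in every mMSC, while Twist1, Twist2 and Snai1 divide into cells at 0 and cells at 5.53 FPKM or more.

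The Runx genes were present in every mMSC. Runx1 (chromosome 16, bases 92601466 to 92826149 of GRCm38, minus strand) ranged from 5.01 FPKM in mMSC5 through a median of 31.3 to 66.3 in mMSC8. In HL1cm1 to HL1cm4 it was listed at 0, and it was at 1.33 FPKM in HL1cm5 and 2.74 in HL1cm-PC. The lowest mMSC was thus above the highest HL1cm, and the difference in mean log2 FPKM (values under 1 FPKM set to 1) was 4.62. Runx2 (chromosome 17, bases 44495987 to 44814797, minus strand) ranged from 2.87 FPKM in mMSC16 through 12.1 to 33.7 in mMSC3, and was at 0 in every HL1cm library, HL1cm-PC included. Of the 2 paralogues Runx1 was the higher in 14 mMSCs, with a ratio of Runx1 to Runx2 FPKM between 0.364 in mMSC9 and 8.90 in mMSC8 and a median of 3.23. The exceptions were mMSC1 (18.3 against 27.0 FPKM) and mMSC9 (11.1 against 30.5), the latter being the library of fewest genes. In mMSC-PC, Runx1 was at 14.2 FPKM and Runx2 at 8.98. Their SDs of log2 FPKM over the mMSCs, 0.98 for Runx1 and 1.12 for Runx2, were the smallest among the 10 genes. Annotated antisense genes overlap both loci, as they do Twist2, Prrx1, Zeb1 and Zeb2. The default options of the aligner and counter do not use strand, so reads of either strand cannot be told apart.

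Sox9 had the highest median FPKM over the mMSCs and varied widely. Sox9 (chromosome 11, bases 112782224 to 112787760, plus strand) ranged from 5.89 FPKM in mMSC14 through 76.6 to 353 in mMSC2, a 60.0-fold range. It was over 200 FPKM in mMSC2, mMSC5 and mMSC6, at 227 and 212 in the latter pair, and under 30 in mMSC8 (20.6), mMSC14 and mMSC16 (27.6). Every mMSC was above every HL1cm, in which Sox9 was listed at 0, as it was in HL1cm-PC. With 36.8 FPKM, mMSC-PC lay below 13 of the 16 single cells. Runx2 and Sox9 were together at 1 FPKM or more in 16 of 16 mMSCs, and Sox9 was the lower of the 2 in mMSC14 alone (5.89 against 6.48 FPKM).

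Prrx1 was found in every cell of both types. Prrx1 (chromosome 1, bases 163245119 to 163313710, minus strand) ranged from 2.97 FPKM in mMSC7 through 39.6 to 114 in mMSC15. In HL1cm1 to HL1cm5 it was at 18.5, 18.4, 12.4, 28.4 and 3.12 FPKM, and at 10.2 in HL1cm-PC. The groups overlapped, since mMSC1 (10.1), mMSC2 (4.61) and mMSC7 were under at least 4 of the 5 HL1cm. The difference in mean log2 FPKM was 1.29. It was 0.77 without HL1cm5, 0.99 with libraries scaled by size factors and 0.55 without the 6 libraries of large FPKM sum, an exclusion chosen after the data were seen. mMSC-PC, at 41.4 FPKM, was close to the median of the cells.

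The Twist genes split the mMSCs. Twist1 (chromosome 12, bases 33957671 to 33959829, plus strand) was listed at 0 in mMSC1, mMSC11, mMSC12 and mMSC15. It lay between 5.53 and 15.02 FPKM in mMSC5, mMSC6, mMSC7, mMSC8 and mMSC13, and between 27.7 and 46.7 in mMSC4, mMSC10, mMSC14 and mMSC16. The highest levels were 94.1 FPKM in mMSC3, 94.6 in mMSC2 and 167 in mMSC9, and these 3 cells held 63.0% of the summed Twist1 FPKM of the 16. Both mMSC9, the highest cell, and mMSC15, where Twist1 was at 0, were the single-cell libraries in which 1 fragment was worth most. Twist2 (chromosome 1, bases 91801461 to 91848028, plus strand) was at 31.6 FPKM in mMSC2, 22.5 in mMSC3, 13.1 in mMSC5, 19.3 in mMSC6, 10.9 in mMSC8, 12.5 in mMSC10 and 24.4 in mMSC16, and was listed at 0 in the other 9. All 7 cells with Twist2 also had Twist1, 5 cells had Twist1 alone, 4 had neither and 0 had Twist2 alone. Where both were present, Twist1 was the higher in 5 cells and Twist2 in 2 (mMSC5 and mMSC6), and the ratio of Twist1 to Twist2 ran from 0.287 to 4.18. The mMSC-PC values were 5.14 FPKM for Twist1 and 4.75 for Twist2, and both genes were listed at 0 in all HL1cm libraries.

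The Snai genes ran at unequal levels in the same cells. Snai1 (chromosome 2, bases 167538195 to 167542814, plus strand) was listed at 0 in mMSC3, mMSC4, mMSC5 and mMSC11 and ranged from 10.8 FPKM in mMSC1 to 217 in mMSC7 in the other 12, with 135 in mMSC9 and 117 in mMSC10. It was at 5.35 FPKM in HL1cm2 and listed at 0 in the other 4 HL1cm and in HL1cm-PC, and because of the mMSCs at 0 the groups overlapped. Snai2 (chromosome 16, bases 14705852 to 14709385, plus strand) was listed at 0 in mMSC13 and in all HL1cm libraries. In the other 15 mMSCs it ran from 1.30 FPKM in mMSC7 to 34.9 in mMSC4. In 11 mMSCs with both genes Snai1 was the higher in 10, by up to 167-fold in mMSC7, and the median ratio of Snai1 to Snai2 was 5.92. The 4 cells with Snai1 at 0 had 26.4 (mMSC3), 34.9 (mMSC4), 21.2 (mMSC5) and 2.89 (mMSC11) FPKM of Snai2, and mMSC13, the cell with Snai2 at 0, had 52.1 FPKM of Snai1. Thus each mMSC had at least 1 of the Snai genes at 1 FPKM or more, and mMSC-PC had both (49.0 and 21.5 FPKM).

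**Figure D2:**
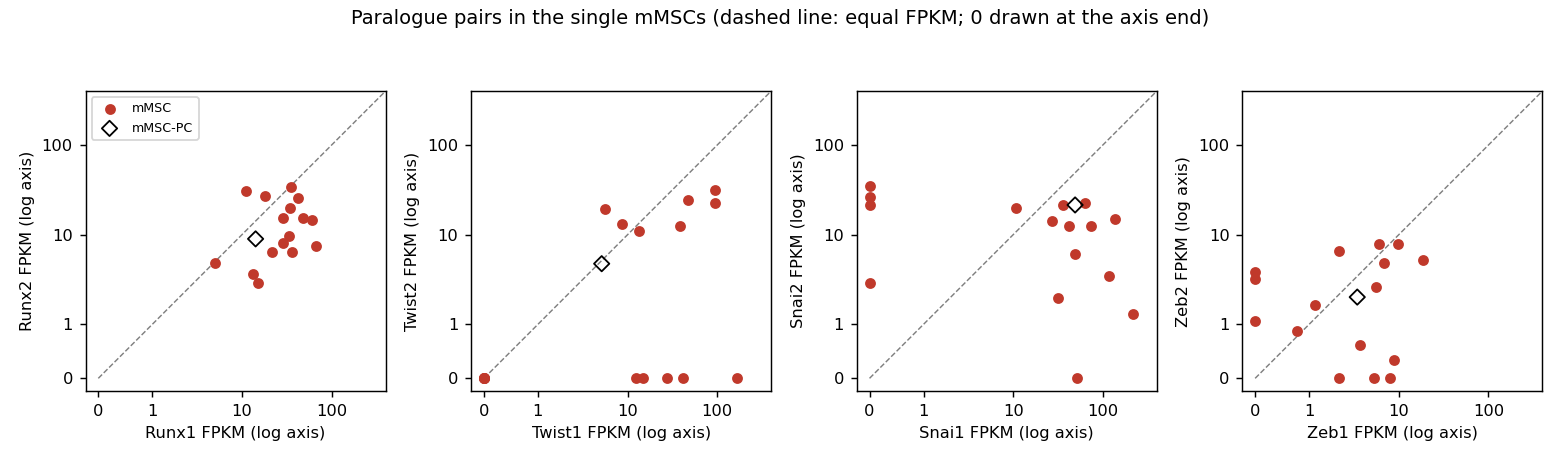
FPKM of both genes of each paralogue pair in the 16 single mMSCs and in mMSC-PC (log axes, 0 drawn at the axis end), with a dashed line at equal FPKM. Runx1 exceeds Runx2 in 14 cells and Snai1 exceeds Snai2 in 11, no cell has Twist2 without Twist1, and Zeb1 exceeds Zeb2 in 9.

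The Zeb genes were low throughout. Zeb1 (chromosome 18) was listed at 0 in mMSC1, mMSC11 and mMSC12 and reached 18.5 FPKM at most, in mMSC4, with a median of 4.49. The 3 cells with Zeb1 at 0 were all among the 4 with Twist1 at 0. In HL1cm1 to HL1cm5 Zeb1 was at 1.95, 1.92, 0.596, 0.401 and 0 FPKM, and in HL1cm-PC, at 9.10, it was above mMSC-PC, at 3.44. Zeb2 (chromosome 2, bases 44983632 to 45117395, minus strand) was listed at 0 in mMSC9, mMSC15 and mMSC16, of which the first pair are the single-cell libraries of least precision, and reached 7.79 FPKM at most, in mMSC3 and mMSC10. In HL1cm it was at 2.51 in HL1cm1, 0.371 in HL1cm4, 0.266 in HL1cm5 and 0 in the other single cells, and at 1.47 in HL1cm-PC. Both genes overlapped between the cell types. In the mMSCs Zeb1 was above Zeb2 in 9 cells and below it in 7, and with both at 1 FPKM or more the counts were 4 and 3. At these levels few fragments stand behind a value, and no error of a single value was computed.

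**Figure D3:**
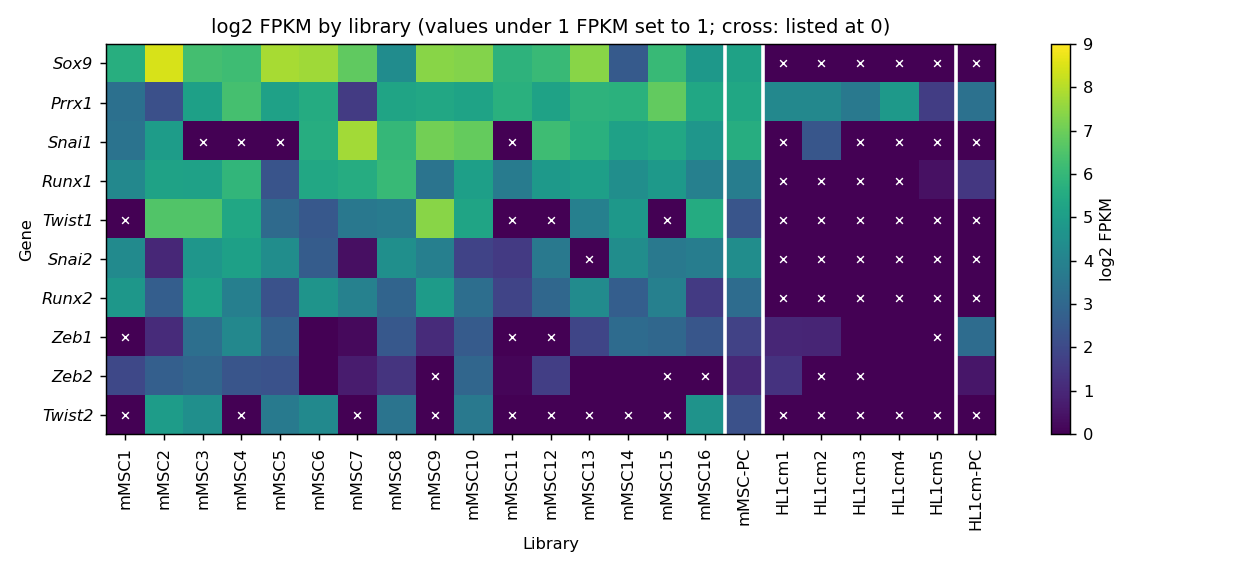
Log2 FPKM (values under 1 FPKM set to 1) of the 10 genes in each of the 23 libraries, with a cross where a gene is listed at 0 and genes in order of median FPKM in mMSCs. Sox9, Runx1 and Runx2 have no cross in the mMSC columns and mostly crosses in the HL1cm columns, and Prrx1 has none in any column.

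Set against the whole table, the 10 genes were mostly higher in mMSCs. Past a log2 difference of 1 between means (values under 1 FPKM set to 1), 9 of the 10 were higher in mMSCs, where 21.4% of 11850 genes were, and 0 were lower, where 21.6% were. The median difference was 3.30 for the 10 genes and 0.08 for all genes. Zeb2, at 0.93, was the gene under the limit. The count was 10 without HL1cm1, where Zeb2 was at 1.19, and 8 without HL1cm5, where Prrx1 fell under the limit. On the same scale the difference was 3.82 for Snai1 and 1.38 for Zeb1. For 3 genes (Runx1, Runx2 and Sox9) every mMSC was above every HL1cm, against 2.19% of all genes, while the reverse held for none of the 10 and for 1.77%. Runx2, Sox9, Twist1, Twist2 and Snai2, 5 of the 10, were listed at 0 in all 5 HL1cm (each 0 of 5 cells, which allows a share of up to 52.2% by the exact interval), against 15% of all genes. They were at 0 in HL1cm-PC too, where the precision of low values was not known, so no fold is given for them. Of these 5, 4 also reached 1 FPKM in 8 or more mMSCs, against 4.14% of all genes. Cell division genes moved with the same contrast, in that 12 of 14 listed were lower in mMSCs past the limit and 0 higher, and their mean log2 FPKM ran from 1.14 to 5.98 in mMSCs and from 2.82 to 6.91 in HL1cm. Their part in the differences was not tested.

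Spread between mMSCs was unequal among the 10 genes. The SD of log2 FPKM, which takes zeros at 1 FPKM, was 2.75 for Snai1, 2.54 for Twist1 and 2.16 for Twist2, at percentiles 98.5, 96.8 and 89.8 of 10867 genes reaching 1 FPKM in 2 or more mMSCs. It was 1.66 for Snai2, 1.496 for Sox9, 1.42 for Prrx1, 1.41 for Zeb1 and 1.21 for Zeb2, between percentiles 39.1 and 66.7. Runx1 and Runx2 were at percentiles 26.0 and 33.5. The median SD was 1.46 for the 10 genes and 1.38 for all genes. Part of the order was set by zeros, because among cells above 0 the highest exceeded the lowest by 2.89-fold for Twist2, 20.1-fold for Snai1 and 30.2-fold for Twist1, against 38.5-fold for Prrx1 and 60.0-fold for Sox9. How far the zeros were absence or missed transcripts was not tested. In FPKM 1 fragment counts for more in a short transcript. The longest annotated transcript had 1621 bases for Snai1, 1628 for Twist1 and 2021 for Snai2, against 5861 for Runx1 and 6463 for Runx2. The part of length in the order was not tested.

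**Figure D4:**
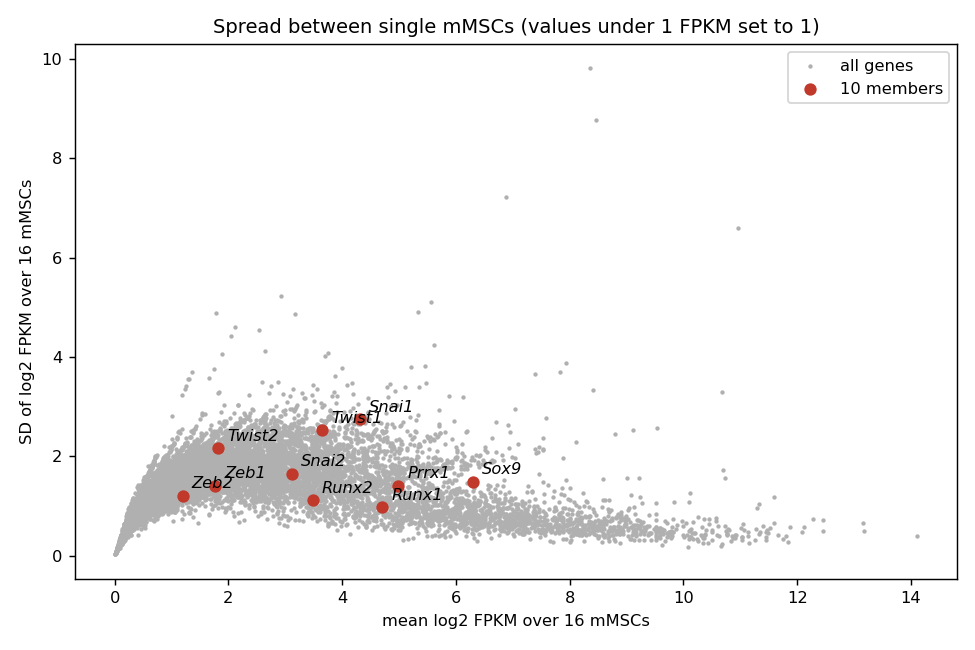
SD against mean of log2 FPKM (values under 1 FPKM set to 1) over the 16 single mMSCs, for every gene (grey) and for the 10 transcription factor genes (red, named). Snai1 and Twist1 lie near the upper edge of the cloud, and Runx1 and Runx2 lie low for their means.

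Over the 16 mMSCs no close relation was seen between the levels of the factors. Among the 9 genes that reached 1 FPKM in 8 or more mMSCs, the 36 pairwise Pearson correlations of log2 FPKM ran from -0.47 (Sox9 with Snai2) to 0.49 (Prrx1 with Zeb1), with a median of 0.06, and 0 exceeded 0.5 in size. Spearman's rho ran from -0.58 (Prrx1 with Zeb2) to 0.56 (Snai2 with Zeb1), and these were the only pairs past 0.5 in size. For paralogues r was 0.43 for the Twist pair, of which Twist2 was under the limit of 8 cells, 0.32 for the Runx pair, 0.26 for the Zeb pair and -0.40 for the Snai pair. With the mean log2 FPKM of the 14 cell division genes, r was -0.53 for Sox9, -0.40 for Snai1 and 0.38 for Snai2, and between -0.23 and 0.21 for the other 7. With the number of genes detected it was -0.46 for Snai1 and 0.38 for Zeb2. These values describe 16 cells that shared medium and chip and differed in depth, and weak correlations of this size in sparse values are no finding.

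For each of the 9 genes, those of nearest pattern among 6776 genes were found by Pearson's r of log2 FPKM over the 16 cells. They were Hspa2 (0.85) and Ube2h (0.82) for Sox9, Gclm (0.83) and Six4 (0.80) for Zeb1, Gpn1 (0.81) and Dcxr (0.78) for Prrx1, and Jub (0.80) and Rgmb (0.79) for Zeb2. For the Runx genes they were Fam125a (0.77) and Snupn (0.76) with Runx1 and Xrcc6 (0.79) and Atg2b (0.72) with Runx2. For the rest they were 2310035C23Rik (0.77) and Uxt (0.75) with Twist1, Gpx3 (0.79) and Mif (0.76) with Snai1, and Sp140 (0.79) and Fam102b (0.78) with Snai2. None of the 10 factors was among the nearest pair of another. The best of 6776 values over 16 cells is high by selection, so these are descriptions only.

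The population control, mMSC-PC, lay within the range of the single mMSCs for all 10 genes, as it did for 89.1% of all genes. Where a gene was listed at 0 in some mMSCs, a pool value could not fall below that range. For Twist1 and Twist2, at 5.14 and 4.75 FPKM, mMSC-PC was below every mMSC above 0 (lowest 5.53 and 10.9 FPKM). Relative to the mean log2 FPKM of the cells, it was lower for 5 genes of which Twist1 (-1.28), Sox9 (-1.10) and Runx1 (-0.88) were farthest, and higher for 5, of which Snai1 (1.31) and Snai2 (1.31) were farthest. Over the 11850 genes passing the filter on low values the median of this difference was 0.39, against -0.08 for the 10 genes. The split into lower and higher depended on the scaling. Scaled to Gapdh, which was at 551 FPKM in mMSC-PC against a median of 202 in the cells, mMSC-PC was lower for all 10 genes, with Snai1 at -0.03 and Snai2 at -0.08, and against the log2 of the mean FPKM it was lower for 9. As TPM it was lower for 3 and higher for 7. The median over all genes passing the filter moved too, to -0.37 scaled to Gapdh and 0.94 as TPM. For the 10 genes these medians were -1.36 and 0.47. Only Runx1, Sox9 and Twist1 kept their direction, lower in mMSC-PC, under every alternative run. Twist2 was listed at 0 in 9 of the cells but was at 4.75 FPKM in the pool. In a pool, fewer cells with a transcript and less of it per cell cannot be told apart.

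Relatives and partners of the factors went in both directions. Of all genes passing the filter on low values, 21.4% were higher in mMSCs past a log2 difference of 1 and 21.6% lower. Of 7 genes of the same families outside the set, 5 passed the filter on low values, 2 were higher and 1 lower. Prrx2, the paralogue of Prrx1, was at 1 FPKM or more in 8 mMSCs (median 6.38, highest 132 FPKM) and listed at 0 in HL1cm. Runx3 was found in 13 mMSCs (median 3.59, highest 19.8 FPKM) and in 1 HL1cm (1.40). Sox5, a partner of Sox9 in cartilage, was found in 4 mMSCs with 5.60 FPKM at most, and Sox6, the other such partner, was listed at 0 in every mMSC and at up to 16.4 FPKM in HL1cm. Of 17 partners and regulators, 15 passed the filter, 5 were higher and 3 lower, with a median difference of 0.08 over all 17. Id1, which keeps Twist partners from DNA, was found in 12 mMSCs (median 36.3, highest 257 FPKM) and in 1 HL1cm. Hand2, a Twist partner of heart and limb, was listed at 0 in all mMSCs and found in HL1cm (4 of 5 cells, up to 25.7 FPKM), and Ctbp1, a corepressor of Zeb proteins, was higher there (median 31.0 against 2.83 FPKM). Cbfb, the shared DNA-binding partner of Runx proteins, named here after its values were seen, had medians of 12.7 FPKM in mMSCs and 15.4 in HL1cm.

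Many genes that Runx2 and Sox9 are known to regulate were listed at 0 in both cell types. Of the 23284 genes of the table, 11850 passed the filter on low values, and the share at 0 in all 21 cells was not counted. Whether these lists held more zeros than other genes was not tested. Of 12 osteoblast genes, 5 passed the filter, 3 were higher in mMSCs and 1 lower (21.4% and 21.6% of all genes), and 5 were listed at 0 in all 21 cells. Spp1, which encodes osteopontin (578 to 11947 FPKM against 6.34 to 38.5), and Col1a1, a chain of type I collagen (30.8 to 385 against 7.61 at most), were among the higher ones. Alpl, alkaline phosphatase of early osteoblasts, was the lower gene, found in 3 mMSCs with 29.9 FPKM at most and in 5 of 5 HL1cm at 12.2 to 169. Of the markers of mature osteoblasts, Bglap and Ibsp were listed at 0 in every cell and Sp7, the factor downstream of Runx2, was at 2.86 FPKM in mMSC10 and at 0 in the rest. Of 12 chondrocyte genes, 3 passed the filter, 0 were higher in mMSCs past the limit and 1 (Sox6) was lower (21.4% and 21.6% of all genes). In all mMSCs 9 of the 12 were listed at 0, and 8 of these 9 were at 0 in all HL1cm too. Col2a1, Acan, Matn1 and Col9a1, which define cartilage and of which Col2a1 and Acan are targets of Sox9, were at 0 in each of the 21 cells, with 1.38 FPKM of Col2a1 in mMSC-PC and 6.59 in HL1cm-PC. Col11a1 was found in 5 mMSCs with 11.9 FPKM at most. Thus the mMSCs had Sox9 at 5.89 to 353 FPKM and these 4 genes at 0, while the single HL1cm had both Sox9 and these 4 genes at 0.

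Mesenchymal genes were high in mMSCs, and epithelial genes were mostly at 0 in both cell types. Here too the counts at 0 have no share over all genes beside them. Of 12 mesenchymal genes, 11 were higher in mMSCs and 1, Cdh2, lower (21.4% and 21.6% of all genes), with a median log2 difference of 3.99. S100a4 (213 to 1078 FPKM) and Col1a2 (80.3 to 1194) were listed at 0 in all HL1cm, as was Postn (1.24 to 460). Lox, the enzyme that crosslinks collagen, was at 43.6 to 252 FPKM against 2.08 at most. Of 14 epithelial genes that Snai and Zeb factors can repress, 11 were listed at 0 in all mMSCs, including Cdh1 and Epcam. Of these 11, 9 were at 0 in all HL1cm as well, Cdh1 among them. The filter was passed by 3 of the 14, and past the limit 1 was higher in mMSCs and 2 lower (21.4% and 21.6% of all genes). Krt19 was found in 9 mMSCs with a median of 15.4 and at most 180 FPKM. Krt18 was at 17.0 to 298 FPKM in HL1cm, and in 2 mMSCs at 7.33 at most. Of 20 other transcription factors of mesenchyme, 7 passed the filter, and 10 were listed at 0 in all 21 cells. Of the 7, 4 were higher in mMSCs and 0 lower, against 21.4% and 21.6% of all genes passing the filter. The 4 were Ebf1 (14 mMSCs, median 42.1 FPKM), Nfatc1 (15 mMSCs, median 21.4), Msx2 (10 mMSCs, median 5.77) and Foxc2 (7 mMSCs, 45.3 at most).

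**Figure D5:**
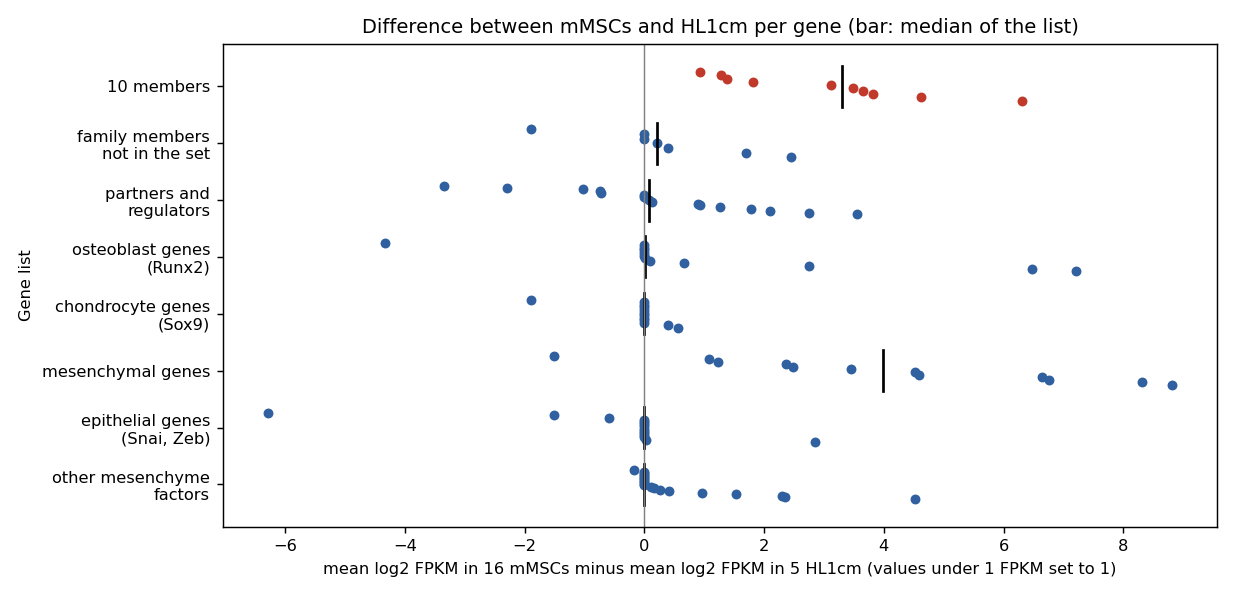
Mean log2 FPKM of 16 mMSCs minus that of 5 HL1cm (values under 1 FPKM set to 1) for each gene of 8 lists, 1 point a gene, with a bar at the median of the list. The 10 transcription factor genes (median 3.30) and the mesenchymal genes (median 3.99) lie mostly to the right of 0, and the other 6 lists have medians between 0 and 0.21.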

How the data were processed

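Expression was measured by paired-end single-cell RNA-seq in 16 mMSCs, 5 HL1cm and 2 population controls, grouped by the labels. The authors deposited FPKM values for 23284 genes, made with TopHat2 2.0.12 and Cufflinks 2.2.1 on mm10 per the submitters' processing notes with default options by the study's methods, which do not use strand. FPKM scales each gene to all mapped fragments, so a very abundant transcript lowers the rest, and the read totals tabulated by the study were not used, so no interval was placed on single values. Values were used as deposited, with those under 1 FPKM set to 1 before log2. Genes reaching 1 FPKM in 2 or more of the 21 single cells were compared. With 1 sample a cell type no test was run, and differences past 1 (log2) were counted beside the same count over all genes. The arithmetic was tested on simulated data.

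All 10 genes are named. Each list names at most 4 genes, those of largest difference between cell types, plus genes whose absence defines a check, and likeness names the nearest 2. Values of 1 listed gene are not reported here. The genes and lists were chosen with earlier results of these data known. Alternatives changed the log scale, scaling, filter, limit of detection, summary over cells and cells included, and the exclusion of 6 libraries of large FPKM sum was chosen after seeing the data. Gene coordinates came from GENCODE M21 (GRCm38, the assembly that mm10 names) and promoters from RefSeq (GRCm38.p6). The software was Python 3.11.15, scipy 1.17.1, pandas 2.3.3, numpy 2.4.6 and, for plots, matplotlib 3.10.9.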

Additional observations from a re-analysis of the deposited data

Results flagged for a closer look

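For 3 of the 10 genes 1 HL1cm alone was at 1 FPKM or more, which puts its gap to the nearest neighbour, divided by the range of the group (Dixon's ratio), at 1 against a critical value of 0.71 for 5 cells. With the other 4 at the floor the ratio is 1 whatever the size of the value, so it says only that 1 cell was above the floor. Runx1 was at 1.33 FPKM in HL1cm5 and listed at 0 in the others. Snai1 was at 5.35 FPKM in HL1cm2 and at 0 in the others. Zeb2 was at 2.51 FPKM in HL1cm1 and under 1 FPKM in the others. Each was in a different cell. Chance marks about 1 in 20 groups of continuous values, and the rate for groups with this many values at the floor was not measured.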

How the results depend on the processing

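No paired analysis was possible because the results come from no test and equal numbers of mMSC and HL1cm only number cells. Values under alternatives were held to a limit. It was the SD between cells for differences, the standard error of that SD for SDs and 1.5 times for counts and percentages. A difference past 1 could fall under 1 within this limit. So it did for Twist2 (1.82 to 0 by the median of log2) and Zeb1 (1.38 to 0.055 with values under 10 FPKM set to 10). Of 416 values under alternatives, 373 stayed within the limit, 40 moved further and 3 reversed from a difference past 1. The sign changed in 17, all in differences between mMSC-PC and the mean of the cells, for 7 of the 10 genes and for the median over the genes (-0.08 as deposited, 0.06 as log2(FPKM + 1), 0.47 as TPM, -1.36 with Gapdh scaling). The largest shift came with values under 10 FPKM set to 10, where the median log2 difference of the 10 genes was 0.85, 5 of them were past 1, none had every mMSC above every HL1cm, and the median SD between mMSCs was 0.75, as follows from raising low values to 10. At 10 FPKM or more, 0 of the 10 genes were detected in all 16 mMSCs. Without the filter, 10.9% of all genes were higher and 11.3% lower in mMSCs. Leaving out each HL1cm in turn kept the median difference at 3.30 and 3 genes without overlap, and put 8 to 10 genes past 1. Size factors put 8 past 1, with Prrx1 at 0.99. The median difference of all genes was 0.08 as deposited, 0.23 as TPM or scaled to Gapdh and -0.06 with size factors. The 3 reversals were for Snai1 (-0.030) and Snai2 (-0.076) with Gapdh scaling and for Snai1 (-0.12) against the log2 of the mean, and the cause was not tested. Depth limits Zeb1 and Zeb2 most, and mMSC9 and mMSC15 among the cells.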
